A study of Mus musculus with 3 samples.

Results

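The 9 genes described here encode the enzymes and the carrier that bring long-chain fatty acids into mitochondria and start their oxidation. They are Cpt1a, Cpt1b, Cpt2, Slc25a20, Acadvl, Acadl, Acadm, Hadha and Hadhb. They were chosen by symbol, and all 9 of them were found among the 29625 genes listed in 3 single-nucleus libraries of mouse epididymal fat. The libraries came from male C57BL/6J mice, 1 library per stage of diet-induced obesity. Ctrl mice received the full (ordinary) diet, whereas Mid_Ob mice, taken while obesity developed, and Ob mice, taken once it was established, received a high fat diet. The fat of the mice of a stage was pooled before sequencing on the 10x Genomics platform, so a stage and its library cannot be told apart. No error between mice can be given, no test between stages was made, and a statement on a stage is a statement on 1 library.

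Fatty acids enter mitochondria as carnitine esters. Carnitine palmitoyltransferase 1, in the outer membrane, makes the ester and is the step that malonyl-CoA inhibits. Cpt1a encodes the form typical of liver, and Cpt1b the form typical of muscle and brown fat. The carrier Slc25a20 exchanges acylcarnitine for carnitine across the inner membrane, and Cpt2 restores the acyl-CoA. Acyl-CoA dehydrogenases for very long, long and medium chains (Acadvl, Acadl, Acadm) take the first step of each round of beta-oxidation. The trifunctional protein, built of an alpha (Hadha) and a beta subunit (Hadhb), carries out the remaining steps on long chains. White adipocytes mainly store and release fatty acids and are less oxidative than liver, heart or brown fat.

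Levels are given as CPM, the UMIs (single transcript molecules) of a gene per 1000000 UMIs of a cluster, a class of clusters or a library. Parentheses hold 95% intervals, which cover counting error only. A gene was called higher or lower where a ratio of CPM exceeded 1.5-fold with at least 50 counts in the pair. The libraries held 53980929 (Ctrl), 57665213 (Mid_Ob) and 111595518 (Ob) UMIs in 14, 11 and 21 clusters. Clusters were called adipocyte-like, macrophage-like and so on from marker genes and their leading genes, and 10 of the 46 clusters stayed unnamed. Clusters named as germ cell, testis or epididymal classes held 47.0% of the UMIs of Ctrl and 30.3% of those of Mid_Ob, while Ob had no such cluster. Unnamed clusters carried such markers too, as Ctrl cluster 1 with 4161 CPM of the germ cell and Mid_Ob cluster 5 with 8700 CPM of the epididymal markers. For that reason the stages were compared mainly within classes. Since nuclei were clustered on their expression, a contrast between clusters is a description.

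Sequence before the start of 5 of these genes is shown, in 4 stretches, since their levels carry the comparisons. They are the entry enzyme Cpt1a, both dehydrogenases that were high in adipocyte-like clusters, and the trifunctional protein, whose genes lie head to head. For Cpt1a, Acadl and Acadm the stretch lies just before the RefSeq start. For the trifunctional protein it lies between the GENCODE models of Hadha and Hadhb. Letters are from RefSeq on GRCm38.p6 and run 5′ to 3′ on the strand of the gene (for the trifunctional protein, on the strand of Hadhb). None of the stretches overlaps an exon of the GENCODE models, but that of Cpt1a lies inside the span of its model, which starts further upstream. Capitals mark GGGCGG or its reverse complement CCGCCC, the core of a GC box.
Cpt1a, chr19:3323151-3323284, + strand: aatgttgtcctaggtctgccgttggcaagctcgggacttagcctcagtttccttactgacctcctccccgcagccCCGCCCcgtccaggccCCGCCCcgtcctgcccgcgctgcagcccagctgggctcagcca
Acadl, chr1:66863310-66863459, - strand: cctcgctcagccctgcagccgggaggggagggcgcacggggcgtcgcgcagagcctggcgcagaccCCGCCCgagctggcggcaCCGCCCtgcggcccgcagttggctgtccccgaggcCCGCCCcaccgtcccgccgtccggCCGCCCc
Acadm, chr3:153944644-153944793, - strand: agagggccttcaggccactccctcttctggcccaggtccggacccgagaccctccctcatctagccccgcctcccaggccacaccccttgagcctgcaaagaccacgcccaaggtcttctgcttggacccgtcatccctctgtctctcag
Hadha and Hadhb, chr5:30155163-30155247, + strand: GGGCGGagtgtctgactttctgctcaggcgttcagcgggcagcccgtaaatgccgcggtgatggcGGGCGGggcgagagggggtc

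The last stretch is the whole gap of 85 bases between the GENCODE starts of Hadha, on the - strand, and Hadhb, on the + strand. Its matches begin 90 and 25 bases before the RefSeq start of Hadhb. The RefSeq start of Hadha is further away, and the only match in the Hadha entry begins 188 bases before it. Of the 9 genes, 8 had a promoter entry of 300 bases (250 before and 50 after the start), the exception being Cpt1b. GGGCGG was found on either strand in 6 of these 8 entries (Cpt1a, Cpt2, Acadl, Hadha, Hadhb and Slc25a20), against 35.7% of all 32851 entries. Neither Acadm nor Acadvl held it. CCAAT was present in 1 of the 8 (Cpt1a, from 19 bases before the start, so that the stretch shown holds only its first letters), against 37.4% of all entries. The DR1 element bound by PPAR with RXR, here the exact consensus with AGGTCA on both sides of 1 free base, and TCAAGGTCA, the letters bound by ERR receptors, were in none of the 8. They were in 0.0396% and 0.423% of all entries. The windows are short, and none of the matches was tested for binding.

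The 9 genes together made up 408 CPM of Ctrl, 429 of Mid_Ob and 593 of Ob, from 22042, 24727 and 66192 UMIs. Summed over the 9, clusters ranged from 213 to 508 CPM in Ctrl, from 262 to 518 in Mid_Ob and from 389 to 846 in Ob. The adipocyte-like cluster was the highest of Ctrl and of Mid_Ob, and the highest of Ob was cluster 18, an unnamed cluster rich in mitochondrial RNA. The adipocyte-like classes stood at 508 (Ctrl), 518 (Mid_Ob) and 663 CPM (Ob). Macrophage-like classes stood at 401, 418 and 521 CPM and mesothelial-like classes at 399, 369 and 465 CPM in the same order. The summed level was thus highest in Ob in each of these 3 classes, but single genes did not follow 1 pattern, as the map of the 46 clusters shows.

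**Figure D1:**
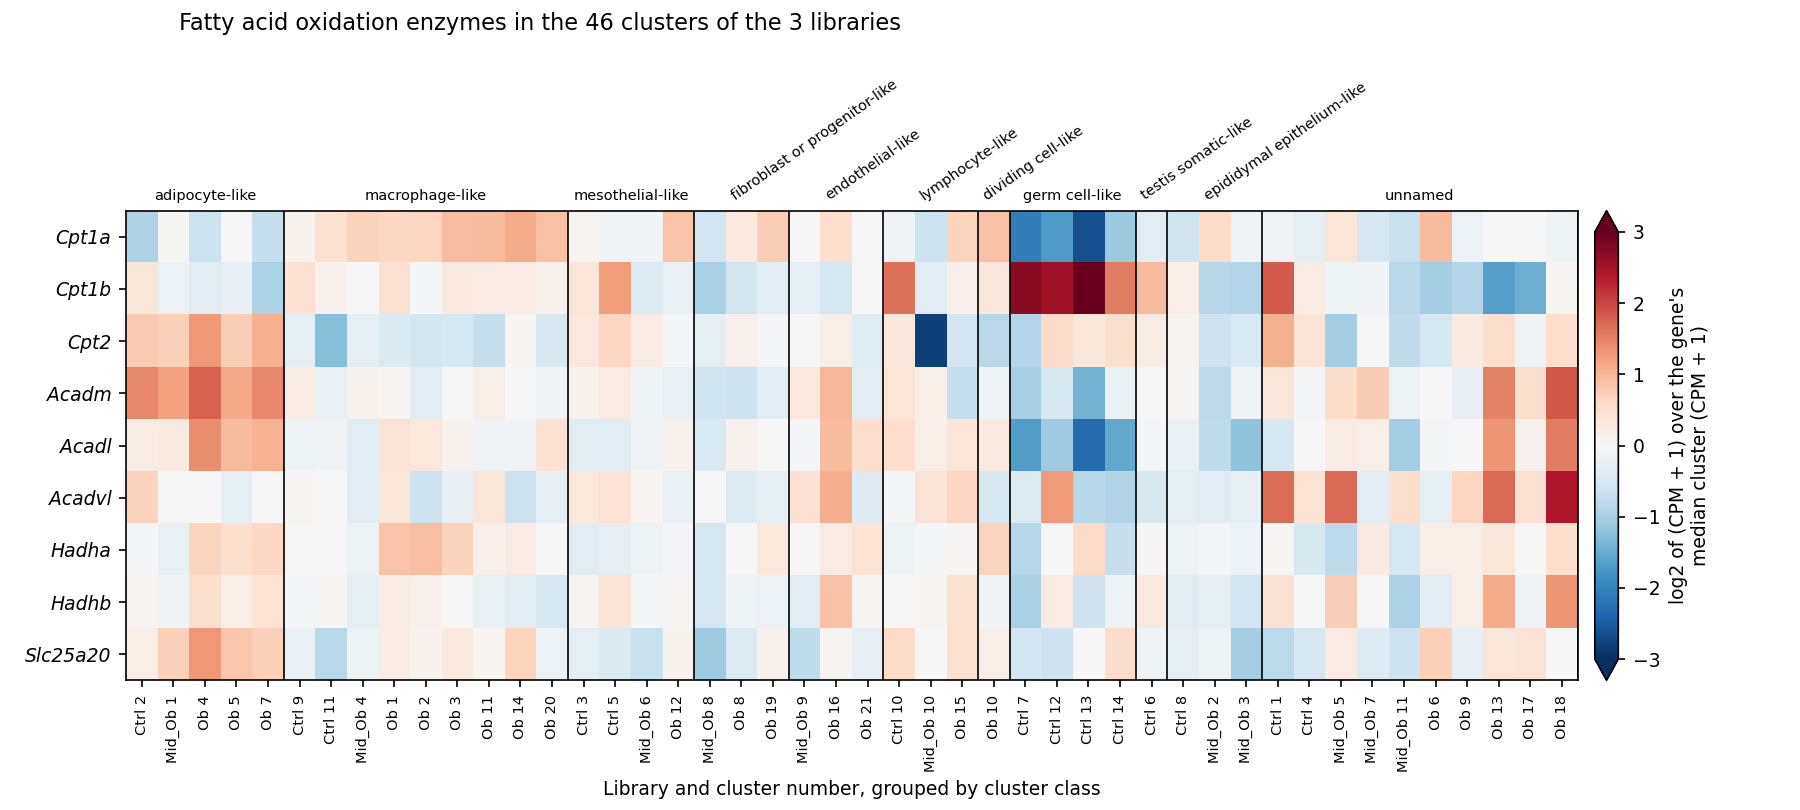
Level of each gene (rows) in each of the 46 clusters (columns, grouped by class), as the log2 of CPM + 1 over the value of the gene's median cluster; the colour scale ends at 3 and -3, and cluster 13 of Ctrl exceeds it for Cpt1b. Acadm is red in the 5 adipocyte-like clusters, Cpt1a in the macrophage-like clusters and Cpt1b in the germ cell-like clusters, where Cpt1a and Acadl are blue.

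Within each library Acadm, Acadl and Cpt2 were higher in adipocyte-like than in the remaining clusters. In Ctrl the adipocyte-like cluster exceeded the other clusters past 1.5-fold in 4 of the 9 genes, against 10.8% of all genes tested. These were Acadm at 3.27-fold (3.08 to 3.47), Acadvl at 1.83-fold (1.49 to 2.25), Acadl at 1.75-fold (1.61 to 1.90) and Cpt2 at 1.56-fold (1.39 to 1.75). Cpt1b was the only one lower past 1.5-fold, against 49.6% of all genes. Leaving testis, epididymis and unnamed clusters out of the comparison took Acadl and Acadvl below the threshold, at log2 ratios of 0.42 and 0.55, left Cpt1b at -0.27, no longer lower, and put Cpt1a below the other clusters at -1.10.

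In Mid_Ob 4 of the 9 genes were higher in the adipocyte-like cluster (13.5% of all genes) and none was lower (40.6%). Acadm reached 2.57-fold (2.42 to 2.72), the carrier Slc25a20 2.39-fold (2.19 to 2.62), Cpt2 2.22-fold (1.97 to 2.50) and Acadl 1.83-fold (1.70 to 1.97), although Acadl fell short, at a log2 ratio of 0.47, without the testis, epididymis and unnamed clusters. The same 4 genes were higher in the adipocyte-like clusters of Ob (18.4% of all genes), Acadm at 2.48-fold (2.38 to 2.58), Cpt2 at 2.40-fold (2.21 to 2.61), Slc25a20 at 1.77-fold (1.68 to 1.87) and Acadl at 1.75-fold (1.68 to 1.82). In Ob Cpt1a was lower there, at a ratio of 0.54 (0.52 to 0.56), the only one of the 9 against 35.7% of all genes. Both subunits of the trifunctional protein stayed within 1.5-fold in every library, between ratios of 0.95 and 1.19. The median log2 ratio of the 9 genes was 0.41 in Ctrl, 0.52 in Mid_Ob and 0.21 in Ob, where that of all genes tested was -0.57, -0.39 and -0.29. Scaling by the median gene added Hadhb and Slc25a20 in Ctrl, and Hadhb and Cpt1b in Mid_Ob, to the genes higher in adipocyte-like clusters.

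The share of transcripts says the same in another way. The adipocyte-like cluster held 25.2% of the UMIs of Ctrl but 52.5% (51.0 to 54.0) of its Acadm UMIs. In Ob the adipocyte-like clusters held 55.4% of all UMIs, 75.5% (74.7 to 76.2) of Acadm and 74.9% (73.3 to 76.4) of Cpt2, but 40.0% (39.1 to 40.9) of Cpt1a. These are exact binomial intervals.

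Cpt1a, which lies at chr19:3322334-3385733 of GRCm38, varied with cell class. Its lowest level was in germ cell-like cluster 13 of Ctrl, at 12.05 CPM, and its highest in macrophage-like cluster 14 of Ob, at 172 CPM. The counting intervals of the highest clusters of Ob overlapped, so no order among them is given. All 9 macrophage-like clusters lay between 85.9 and 172 CPM, above all 5 adipocyte-like clusters, which lay between 41.2 and 82.1 CPM.

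In adipocyte-like clusters Cpt1a stood at 41.2 CPM (37.8 to 44.7) in Ctrl and at 82.1 CPM (78.7 to 85.6) in Mid_Ob. In Ob clusters 4, 5 and 7 it was at 50.5, 80.5 and 49.1 CPM, or 68.0 CPM (65.9 to 70.1) for the class. Mid_Ob was therefore 1.99-fold (1.82 to 2.19) and Ob 1.65-fold (1.51 to 1.81) above Ctrl. The difference between Ob and Ctrl rested on cluster 5: without it the log2 ratio was 0.28, below the threshold, and Ob was lower than Mid_Ob at -0.71. With equal weight for each cluster it was 0.54, also below the threshold. The 14 epididymal markers read 299, 2298 and 78.9 CPM in the adipocyte-like classes of Ctrl, Mid_Ob and Ob, and the epididymal epithelium-like clusters of Mid_Ob held 94.5 CPM of Cpt1a. The part of epididymal RNA in the Mid_Ob level was not tested. Cluster 5 carried 2069 CPM of the 14 macrophage markers, against 333 and 363 CPM in clusters 4 and 7, and 601 and 524 CPM in the adipocyte-like clusters of Ctrl and Mid_Ob. The part of macrophage RNA in the Cpt1a level of cluster 5 was not tested.

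In macrophage-like clusters Cpt1a read 97.4 CPM in Ctrl, 129 CPM in Mid_Ob and 138 CPM in Ob. The ratios of 1.33 (1.16 to 1.51) for Mid_Ob and 1.42 (1.29 to 1.57) for Ob over Ctrl did not pass 1.5-fold. They did pass it when Ctrl cluster 11, at 110 CPM, was left out and only cluster 9, at 85.9 CPM, remained, with log2 ratios of 0.59 and 0.69. In mesothelial-like clusters, the lining cells of the fat pad, Cpt1a stood at 82.2 CPM in Ctrl, 74.9 CPM in Mid_Ob and 144 CPM in Ob. Ob was 1.92-fold (1.60 to 2.30) above Mid_Ob and 1.75-fold (1.52 to 2.002) above Ctrl. The macrophage markers stood at 375, 367 and 1251 CPM in these classes, and their part in this difference was not tested.

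Cpt1b (chr15:89416405-89425863, GRCm38) was highest in germ cell-like cluster 13 of Ctrl, where Cpt1a was lowest. It reached 138 CPM there and stood at 36.8, 32.5 and 16.1 CPM in the germ cell-like clusters 7, 12 and 14. In Mid_Ob and Ob its highest cluster was macrophage-like, as for Cpt1a, at 4.79 and 6.93 CPM of Cpt1b. The counting intervals of the highest clusters overlapped in both libraries. Cluster 13 held 15.1% of the UMIs of Ctrl and 68.9% (66.6 to 71.1) of its Cpt1b UMIs, and the 4 germ cell-like clusters together held 80.8% (78.8 to 82.7). In whole libraries Cpt1b went from 30.2 CPM in Ctrl to 3.42 CPM in Mid_Ob and 3.98 CPM in Ob, where no germ cell-like cluster was found. Per kilobase of exon, the germ cell-like class of Ctrl had 27.5 CPM of Cpt1b and 2.16 CPM of Cpt1a, while its macrophage-like class had 1.80 and 12.7 CPM. Per kilobase of exon, Cpt1a thus exceeded Cpt1b in the adipocyte-like and macrophage-like classes of all 3 libraries, and Cpt1b exceeded Cpt1a in the pooled germ cell-like class of Ctrl. Of the 1317 Cpt1b UMIs of that class, cluster 13 held 1123. Before division by length, Cpt1b was the higher in germ cell-like clusters 7, 12 and 13. In cluster 14 Cpt1a was the higher, at 36.04 CPM against 16.1 CPM of Cpt1b. Whether the UMIs of a gene rise with its exon length was not tested. Per kilobase of the whole gene, introns included, Cpt1a and Cpt1b were close in the adipocyte-like cluster of Ctrl, at 0.650 and 0.683 CPM.

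Outside the germ cell-like clusters Cpt1b was scarcer, but unnamed cluster 1 and lymphocyte-like cluster 10 of Ctrl, at 19.7 and 17.25 CPM, lay near germ cell-like cluster 14. Cluster 10 rests on 11 UMIs, with an interval of 8.61 to 30.9 CPM, and no order among these clusters is given. Clusters 1 and 10 held 4161 and 1263 CPM of the germ cell markers, whose part in these levels was not tested. The 10 remaining Ctrl clusters lay between 5.28 and 19.7 CPM, against 1.95 to 4.79 CPM in the 11 clusters of Mid_Ob and 0.834 to 6.93 CPM in the 21 clusters of Ob. Every Ctrl cluster was thus above every Mid_Ob cluster. The 13 germ cell markers also differed between the libraries, at 345 to 4161 CPM in these Ctrl clusters, 31.9 to 333 CPM in Mid_Ob and 30.4 to 253 CPM in Ob. Within Ob they were highest in cluster 4, at 253 CPM, with 3.64 CPM of Cpt1b. Cluster 1 of Ob, highest for Cpt1b at 6.93 CPM, held 33.7 CPM of these markers. In adipocyte-like clusters Cpt1b went from 6.46 CPM in Ctrl to 4.07 in Mid_Ob and 3.57 in Ob, 1.59-fold (1.18 to 2.12) and 1.81-fold (1.39 to 2.32) lower than Ctrl. The germ cell markers there read 604, 127 and 176 CPM, and the part of germ cell RNA in these differences was not tested. Scaling by the median gene took the first of the 2 ratios below the threshold, at a log2 ratio of -0.58. Cpt1b shares its strand and part of its span with the gene model Gm44502, which was not listed in the tables.

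**Figure D2:**
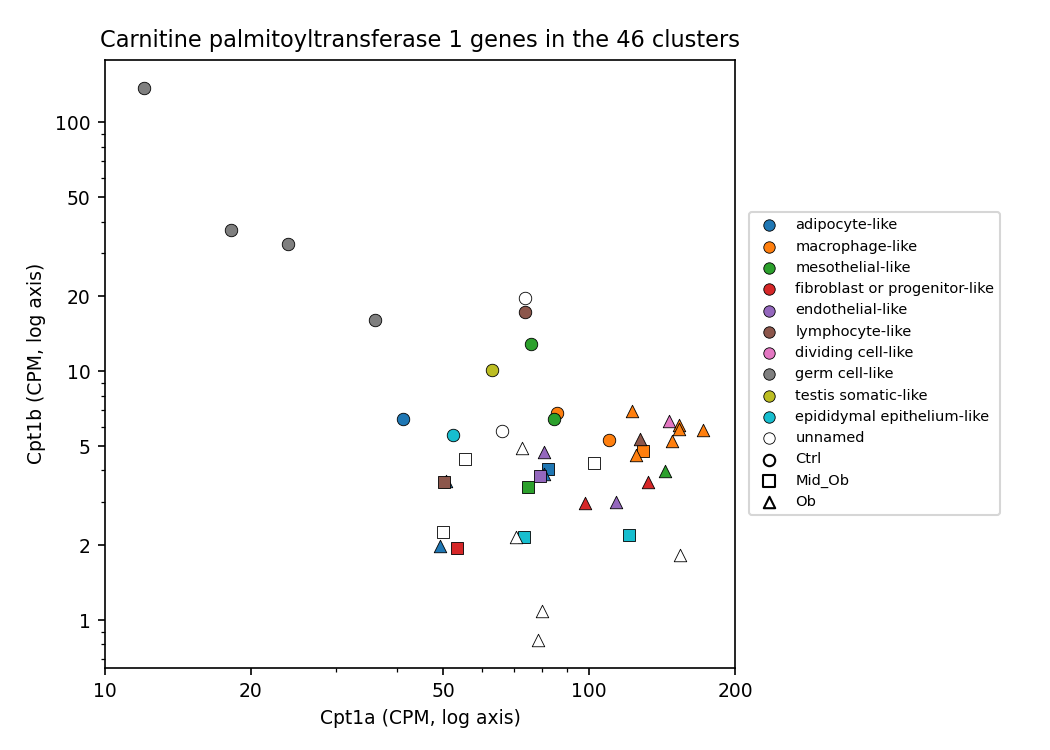
Cpt1b against Cpt1a in the 46 clusters, both in CPM on log axes, with colour for the class and the shape of the point for the library. The 4 germ cell-like clusters of Ctrl lie at the upper left, at 12.05 to 36.04 CPM of Cpt1a and 16.1 to 138 CPM of Cpt1b, and the macrophage-like clusters at the right.

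Slc25a20 (chr9:108662088-108684641), the carrier, and Cpt2 (chr4:107903981-107923610), the inner-membrane transferase, differed in how they varied with stage. In adipocyte-like clusters Slc25a20 stood at 38.8 CPM (35.5 to 42.2) in Ctrl, 55.8 CPM (53.0 to 58.7) in Mid_Ob and 67.4 CPM (65.4 to 69.5) in Ob. The Ob clusters 4, 5 and 7 were at 85.4, 60.8 and 56.5 CPM, all above Ctrl. Ob exceeded Ctrl 1.74-fold (1.59 to 1.91), and Mid_Ob exceeded it 1.44-fold (1.30 to 1.59). The macrophage-like class had lower levels in the same order, 24.3, 30.2 and 38.5 CPM, and Ob exceeded Ctrl 1.59-fold (1.31 to 1.94). That ratio fell below the threshold without Ctrl cluster 11, at a log2 ratio of 0.38. In mesothelial-like clusters Slc25a20 read 27.3, 20.97 and 36.5 CPM, and Ob was 1.74-fold (1.23 to 2.50) above Mid_Ob.

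Cpt2 stood at 32.4, 31.0 and 36.8 CPM in the adipocyte-like classes of Ctrl, Mid_Ob and Ob, and no stage ratio passed 1.5-fold. The Ob over Ctrl ratio was 1.13 (1.02 to 1.26). It was highest in cluster 4 of Ob, at 46.7 CPM, and its lowest value, 1.79 CPM in the lymphocyte-like cluster of Mid_Ob, rests on 1 count. Macrophage-like classes held 11.3, 14.9 and 12.7 CPM of Cpt2, below the adipocyte-like class of each library.

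Among the dehydrogenases Acadm and Acadl shared their high clusters but not their change with stage. Acadm (chr3:153922357-153944632) was at 167 CPM (160 to 174) in the adipocyte-like cluster of Ctrl and at 142 CPM (137 to 146) in that of Mid_Ob. In Ob clusters 4, 5 and 7 it stood at 208, 133 and 165 CPM, or 159 CPM (156 to 162) for the class. Ob and Ctrl thus differed by a ratio of 0.951 (0.909 to 0.996), and all 3 stage ratios lay within 1.5-fold. In macrophage-like clusters Acadm read 61.8, 65.1 and 57.0 CPM.

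Acadl (chr1:66830839-66863277) was at 70.6 CPM (66.2 to 75.2) and 72.0 CPM (68.8 to 75.2) in the adipocyte-like clusters of Ctrl and Mid_Ob. In Ob it was at 159, 116 and 125 CPM in clusters 4, 5 and 7, or 130 CPM (127 to 133) for the class. Each of the 3 Ob clusters lay above both earlier libraries. Ob exceeded Mid_Ob 1.80-fold (1.72 to 1.90) and Ctrl 1.84-fold (1.72 to 1.97), while Mid_Ob over Ctrl was 1.02 (0.94 to 1.10). In macrophage-like clusters Acadl read 54.9, 48.2 and 70.8 CPM, and Ob over Mid_Ob reached 1.47 (1.25 to 1.73). Over the 46 clusters the log2 levels of Acadl and Acadm had a Pearson r of 0.74, where clusters of a library share depth and preparation.

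Acadvl (chr11:70010183-70015411), which takes the longest chains, was scarce throughout, with a median of 6.55 CPM over the 46 clusters. In adipocyte-like clusters it stood at 11.2 CPM (9.46 to 13.1) in Ctrl, 6.51 CPM (5.59 to 7.55) in Mid_Ob and 5.79 CPM (5.21 to 6.42) in Ob. Both later stages were lower than Ctrl, 1.71-fold (1.37 to 2.14) in Mid_Ob and 1.93-fold (1.58 to 2.34) in Ob. Its 4 highest clusters were the 4 with the largest share of mitochondrially encoded UMIs. These were Ob cluster 18, at 39.8 CPM with a mitochondrial share of 8.39%, Mid_Ob cluster 5 (23.5 CPM, 2.98%), Ob cluster 13 (23.4 CPM, 6.18%) and Ctrl cluster 1 (23.2 CPM, 1.85%). The gene overlaps Dvl2 on the opposite strand.

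**Figure D3:**
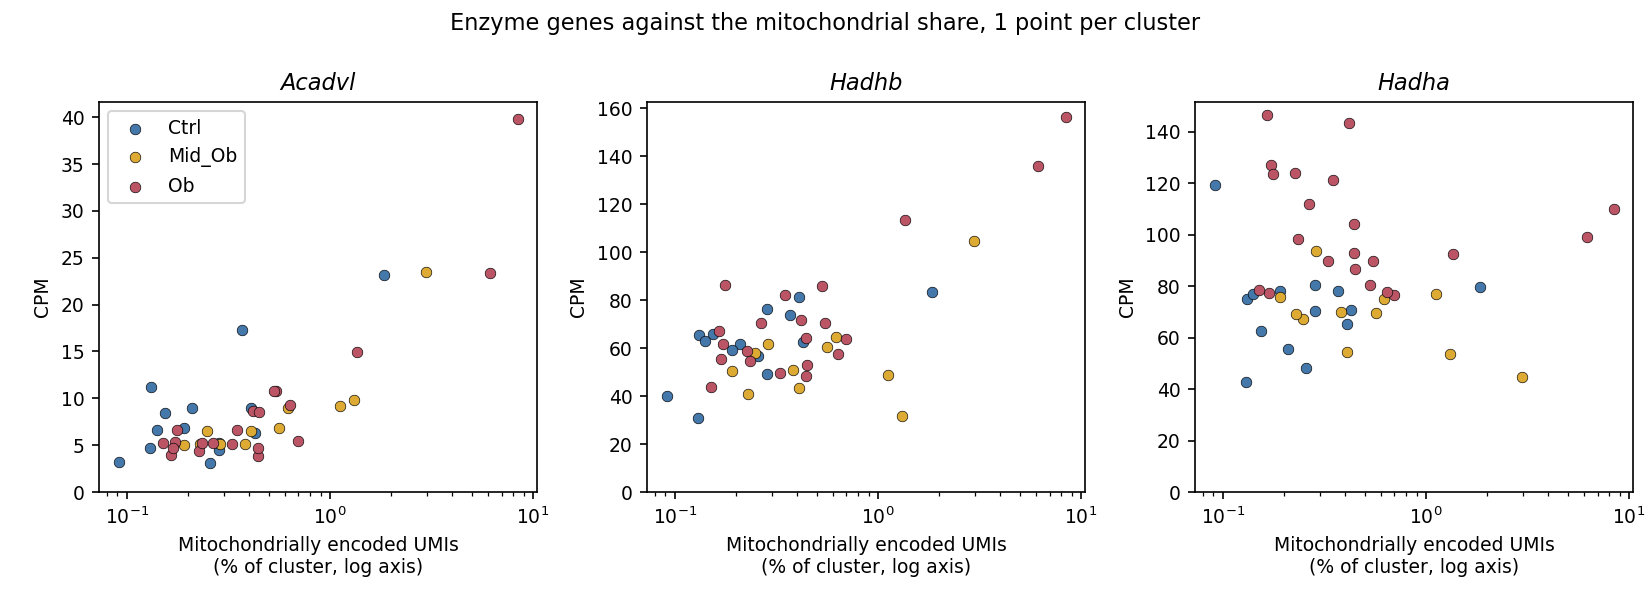
CPM of Acadvl, Hadhb and Hadha against the share of mitochondrially encoded UMIs (log axis, percent), 1 point per cluster and coloured by library. The clusters with the largest shares, up to 8.39%, hold the highest Acadvl and Hadhb levels, up to 39.8 and 156 CPM, but not the highest Hadha levels.

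Hadha (chr5:30118304-30155162) and Hadhb (chr5:30155248-30184593), the paired subunits, were not parallel. In adipocyte-like clusters Hadha stood at 74.9 CPM (70.4 to 79.6) in Ctrl, 67.4 CPM (64.3 to 70.6) in Mid_Ob and 117 CPM (114 to 119) in Ob. The Ob clusters 4, 5 and 7 were at 124, 112 and 121 CPM, all above both earlier libraries, so that Ob exceeded Mid_Ob 1.73-fold (1.64 to 1.82) and Ctrl 1.56-fold (1.46 to 1.66). Hadhb stood at 65.5, 57.8 and 76.6 CPM, and its Ob over Mid_Ob ratio of 1.32 (1.25 to 1.40) and Ob over Ctrl ratio of 1.17 (1.09 to 1.26) did not pass the threshold. The ratio of Hadha to Hadhb UMIs, which is not corrected for length, was 1.14 (1.04 to 1.25) in Ctrl, 1.17 (1.09 to 1.25) in Mid_Ob and 1.52 (1.47 to 1.58) in Ob. The interval of Ob lay above both others.

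Macrophage-like clusters showed a wider gap. Hadha read 77.7 CPM in Ctrl, 70.2 CPM in Mid_Ob and 129 CPM in Ob, 1.84-fold (1.61 to 2.10) above Mid_Ob and 1.66-fold (1.49 to 1.86) above Ctrl. Hadhb read 60.9, 51.0 and 63.1 CPM, with ratios of 1.24 (1.06 to 1.45) and 1.04 (0.91 to 1.18). Hadha over Hadhb was 1.27 (1.09 to 1.49), 1.38 (1.13 to 1.68) and 2.04 (1.92 to 2.18). Ob was split: clusters 1, 2 and 3 held 143, 147 and 127 CPM of Hadha, but clusters 11, 14 and 20 held 86.8, 92.8 and 78.4 CPM. With equal weight for each cluster the Ob over Ctrl ratio fell below the threshold, at a log2 ratio of 0.53. The 8 markers of lipid-associated macrophages, the Trem2 and Gpnmb type of obese fat, summed to 5797, 9323 and 3203 CPM in clusters 1, 2 and 3 and to 1205, 1728 and 496 CPM in clusters 11, 14 and 20. In Ctrl, macrophage-like cluster 11 held 4756 CPM of these markers and cluster 9 held 1800 CPM. Hadha had 175 of 2273906 UMIs in cluster 11 and 196 of 2502474 in cluster 9, or 77.7 CPM over both. The part of lipid-associated macrophages in the Hadha level was not tested.

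The pair also parted in other clusters. In germ cell-like cluster 13 of Ctrl Hadha was at 119 CPM and Hadhb at 40.0 CPM, a ratio of 2.99 (2.63 to 3.40), the highest of the 46 clusters. The lowest ratios, 0.43 (0.24 to 0.73), 0.70 (0.58 to 0.85) and 0.73 (0.57 to 0.93), belonged to Mid_Ob cluster 5 and Ob clusters 18 and 13, all rich in mitochondrial RNA. Over the 46 clusters the r of Hadha with Hadhb was 0.33. With the summed mitochondrially encoded genes it was 0.79 for Acadvl, 0.59 for Hadhb and -0.05 for Hadha. Hadha overlaps Garem2 on the opposite strand, which had 20 counts in all.

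Counting over all 9 genes, 1 was higher and 2 were lower in the adipocyte-like cluster of Mid_Ob than in that of Ctrl (Cpt1a against Acadvl and Cpt1b), against 15.3% higher and 20.2% lower of all 17042 genes tested. From Mid_Ob to Ob 2 were higher (Acadl and Hadha) and none lower, against 15.3% and 19%. Ob over Ctrl had 4 higher (Acadl, Slc25a20, Cpt1a and Hadha) and 2 lower (Acadvl and Cpt1b), against 18.8% and 27.6%. The median log2 ratios of the 9 were -0.15, 0.25 and 0.23 in these comparisons, and those of all genes were -0.08, -0.03 and -0.12. Scaling by the median gene turned the first split into 2 higher, with Slc25a20 added, and 1 lower, with Cpt1b lost. The plot of levels by stage sets the 3 classes side by side.

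**Figure D4:**
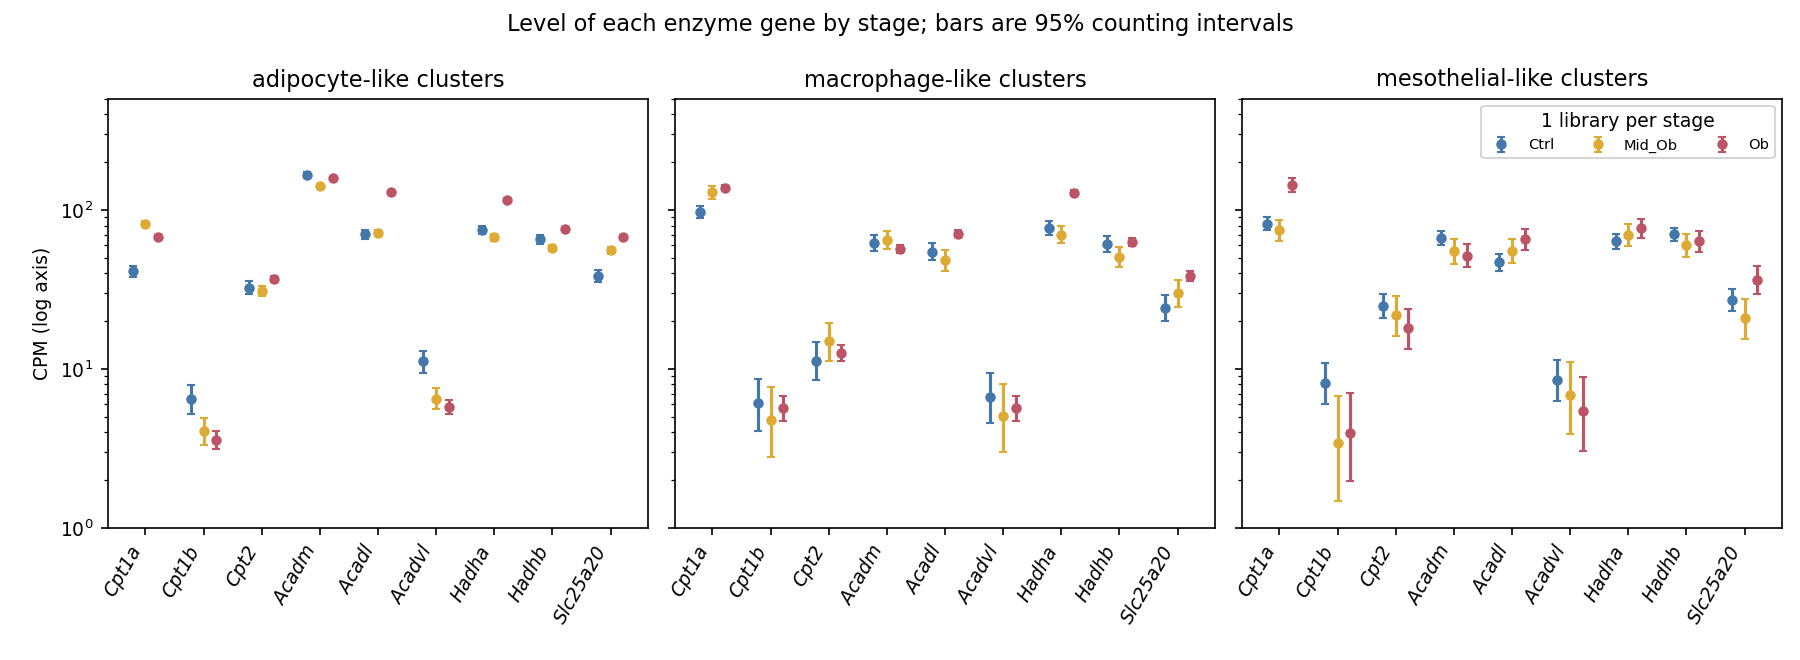
Level of each gene (CPM, log axis) in adipocyte-like, macrophage-like and mesothelial-like clusters, with 1 point per library and bars for the 95% counting interval. In adipocyte-like clusters Acadl and Hadha stand apart in Ob, at 130 and 117 CPM, Cpt1a is lowest in Ctrl, and Acadm lies between 142 and 167 CPM.

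In macrophage-like clusters none of the 8 genes with enough counts passed 1.5-fold from Ctrl to Mid_Ob, against 8.71% higher and 14.8% lower of all genes. Without Ctrl cluster 9, Cpt2 and Slc25a20 passed it, at log2 ratios of 1.09 and 0.71. From Mid_Ob to Ob 1 was higher (Hadha) and none lower, against 13.1% and 18.4%, and Ob over Ctrl had 2 higher (Hadha and Slc25a20) and none lower, against 13.7% and 24.1%. The adipocyte markers in these classes summed to 2645, 1919 and 3551 CPM, and their part was not tested. In mesothelial-like clusters 1 gene was lower in Mid_Ob than in Ctrl (Cpt1b) and none was higher, against 12.3% and 8.06%. Ob over Mid_Ob had 2 higher (Cpt1a and Slc25a20) and none lower of 7 with enough counts, against 13.3% and 9.58%. Ob over Ctrl had 1 higher (Cpt1a) and 2 lower (Cpt1b and Acadvl), against 15.3% and 18.1%. The lower calls rest on few UMIs, 11 in Ob and 46 in Ctrl for Cpt1b and 15 and 48 for Acadvl, and both were lost without either Ctrl cluster, where fewer than 50 counts remained, as was the call for Cpt1b in Mid_Ob.

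Whole libraries mix these changes with the makeup of each library, and fewer nuclei of a type cannot be told apart there from less RNA per nucleus. Mid_Ob over Ctrl had 1 gene higher (Cpt1a, 1.71-fold, 1.63 to 1.79) and 1 lower (Cpt1b), against 17.3% and 35.5% of all genes. Without the testis and epididymis clusters Cpt1a had a log2 ratio of 0.38 and was no longer called. Ob over Mid_Ob had 2 higher, Acadl at 1.92-fold (1.85 to 2.002) and Hadha at 1.64-fold (1.58 to 1.70), and none lower, against 17.5% and 27.3%. Ob over Ctrl had 3 higher, Acadl at 2.19-fold (2.10 to 2.28), Cpt1a at 1.87-fold (1.80 to 1.96) and Slc25a20 at 1.72-fold (1.63 to 1.82), with Cpt1b lower, against 18.1% and 43.5%. Over all genes the median log2 ratio was -0.16, -0.09 and -0.35, and that of the 9 was -0.11, 0.31 and 0.54. Scaling by the median gene raised the last count to 6 higher, adding Acadm, Hadha and Hadhb. Without the testis and epididymis clusters the same comparison lost Cpt1a, at a log2 ratio of 0.58, and gained Hadha as higher, at 0.67, and Acadvl as lower, at -0.62.

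The 3 adipocyte-like clusters of Ob were not alike. Cluster 4, whose leading genes included the peroxisomal enzymes Acaa1b and Ehhadh, had 770 CPM over the 9 genes, against 614 in cluster 5 and 648 in cluster 7. None of the 9 passed 1.5-fold in cluster 4 over the other clusters of the class, against 7.29% higher and 23.3% lower of all genes. Acadm came nearest at 1.49-fold (1.43 to 1.56), followed by Cpt2 at 1.43-fold (1.31 to 1.56), Slc25a20 at 1.42-fold (1.33 to 1.52) and Acadl at 1.35-fold (1.29 to 1.42), while Cpt1a was at a ratio of 0.67 (0.62 to 0.72). In cluster 5 Cpt1a was the only one called, 1.61-fold (1.503 to 1.72) higher, against 24.9% higher of all genes, and none was lower, against 7.63%. In cluster 7 Cpt1b was the only one, at a ratio of 0.52 (0.29 to 0.88), against 22.7% lower, and none was higher, against 2.92%. Cpt1a and the other abundant members thus pointed in opposite directions between clusters 4 and 5.

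**Figure D5:**
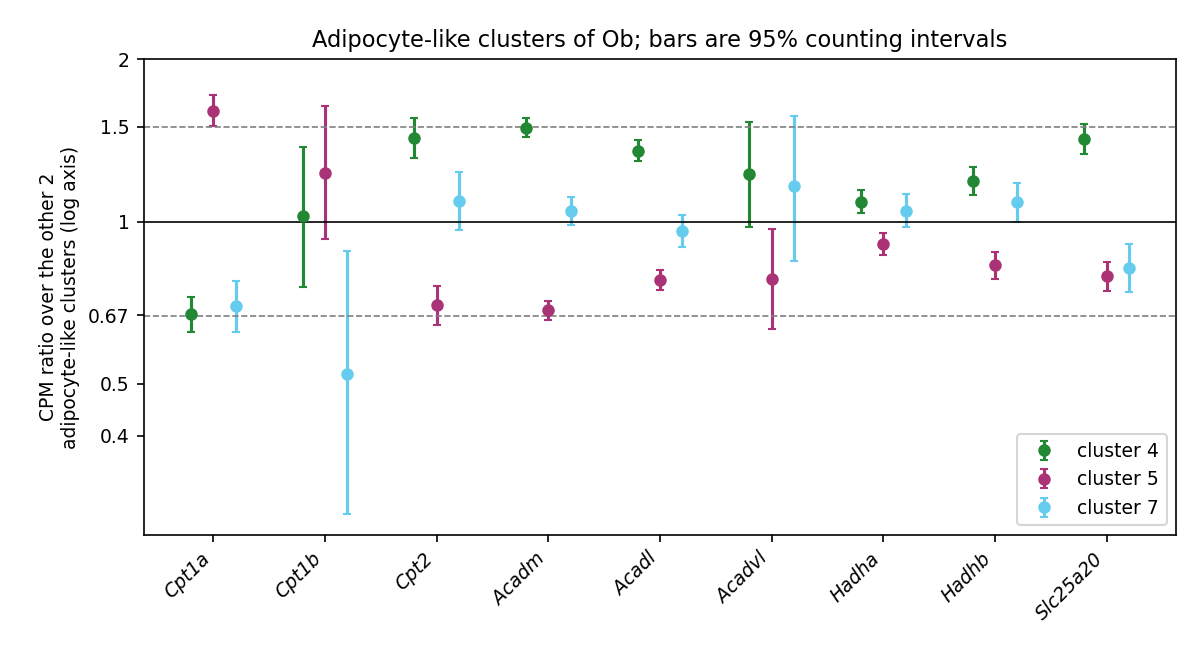
Ratio of CPM in each adipocyte-like cluster of Ob over the other 2 clusters of the class (log axis), with bars for the 95% counting interval and dashed lines at 1.5-fold either way. Cluster 5 has a ratio of 1.61 for Cpt1a and ratios below 1 for Cpt2, Acadm, Acadl and Slc25a20, where cluster 4 is above 1.

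The 6 macrophage-like clusters of Ob differed in few of the 9. Cluster 1 had more Acadvl than the others, 1.73-fold (1.14 to 2.59), against 6.84% of all genes higher, and none lower, against 7.97%. Cluster 2 had less Acadvl, at a ratio of 0.60 (0.38 to 0.93), against 15.3% lower, and none higher, against 7.45%. Cluster 3 had none called, against 6.17% higher and 6.56% lower. Cluster 11 had Hadha lower at 0.66 (0.55 to 0.78), against 17%, and Acadvl higher at 1.55 (0.80 to 2.77), against 13%. Cluster 20 also had Hadha lower, at 0.59 (0.49 to 0.70), against 26.8%. Cluster 14 had Cpt2 higher at 1.55 (0.73 to 2.89), against 21.5%. The intervals for Acadvl in cluster 11 and for Cpt2 in cluster 14 included 1.

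Outside these classes, levels can be set beside each other but were not called. The dividing cell-like cluster of Ob had 146 CPM of Cpt1a and 124 CPM of Hadha, close to the macrophage-like clusters of that library. Fibroblast or progenitor-like clusters had 53.3 CPM of Cpt1a in Mid_Ob and 114 CPM in Ob, with 43.5 and 63.1 CPM of Acadl. Their Acadm levels, 39.6 and 43.0 CPM, were among the lowest outside germ cells. In this class Ob cluster 19 carried 3253 CPM of the macrophage markers, against 409 CPM in Ob cluster 8 and 469 CPM in Mid_Ob cluster 8. The part of macrophage RNA in these levels was not tested. Ob cluster 9, with 9302 CPM of the fibroblast or progenitor markers, stayed unnamed and is not included. Sema3e was a leading gene of Ob cluster 9 and Mid_Ob cluster 8 but not of Ob clusters 8 and 19. Col14a1 was one of Mid_Ob cluster 8 and Ob cluster 19. The fibroblast or progenitor-like levels of Mid_Ob and Ob may therefore come from unlike cells. Endothelial-like clusters held 79.1 and 95.2 CPM of Cpt1a and 57.4 and 99.2 CPM of Acadl in Mid_Ob and Ob. These classes were unlike. The adipocyte markers summed to 15434 and 6412 CPM in Ob clusters 16 and 21, against 4807 CPM in Mid_Ob cluster 9. The part of adipocyte RNA in these levels was not tested. Prox1 and Flt4 were among the leading genes of Ob cluster 21 but not of Mid_Ob cluster 9. In lymphocyte-like clusters Cpt1a read 73.7, 50.1 and 127 CPM from Ctrl to Ob, on 47, 28 and 95 UMIs. The macrophage markers there read 2905, 2865 and 4034 CPM, beside 2957, 5654 and 8103 CPM of the lymphocyte markers. The part of macrophage RNA in these Cpt1a levels was not tested. Germ cell-like clusters had 14.7 CPM of Acadl and 27.9 CPM of Acadm, less than any other named class.

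Among the genes most like the sum of the 9 over the 46 clusters, by Pearson r of log2(CPM + 1) among 13950 genes, were Psma1 (0.88), Lrrc58 (0.87), Idh1 (0.86) and Pnpla2 (0.85). Psma1 encodes a proteasome subunit, Idh1 the cytosolic isocitrate dehydrogenase and Pnpla2 the first lipase of triglyceride breakdown. For Cpt1a alone they were Magt1, Tmed10 and Rab1a (0.87, 0.86 and 0.86), the latter pair known from transport between endoplasmic reticulum and Golgi. For Cpt1b they were Prss44, Olfr1277 and Bcas1os2 (0.90, 0.90 and 0.89). Cpt1a and Cpt1b had an r of -0.56 with each other. The r with the summed adipocyte markers was 0.79 for Acadm, 0.66 for Acadl, 0.65 for Hadhb, 0.60 for Slc25a20, 0.53 for Cpt2 and -0.04 for Cpt1a. These values describe 46 points that share libraries.

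The other genes of the pathway were taken from 6 lists with 58 genes. In adipocyte-like clusters the 15 other enzymes of mitochondrial beta-oxidation had none higher and 1 lower in Mid_Ob over Ctrl (Acaa2), 1 higher in Ob over Mid_Ob, and 3 higher in Ob over Ctrl. Of all genes tested in these comparisons 15.3%, 15.3% and 18.8% were higher and 20.2%, 19% and 27.6% lower. Etfa, which passes electrons from the dehydrogenases to the respiratory chain, stood at 213, 201 and 434 CPM in Ctrl, Mid_Ob and Ob, 2.15-fold (2.09 to 2.22) higher in Ob than in Mid_Ob. Acad12 was at 20.5, 25.1 and 35.2 CPM, Acadsb at 114, 121 and 85.2 CPM, and Acad11 at 113, 101 and 113 CPM. Acaa2, the mitochondrial thiolase, was at 33.8, 20.7 and 23.6 CPM.

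The synthetases that activate fatty acids lie before Cpt1a and Cpt1b. Acsl1, the most abundant, was higher at each later stage, with 908 CPM in Ctrl, 1436 in Mid_Ob and 2984 in Ob. Its level in Ob exceeded Ctrl 3.28-fold (3.23 to 3.35). Acsl3 was highest in Mid_Ob, at 24.6, 50.5 and 20.04 CPM. Tmlhe, the first enzyme of carnitine synthesis, stayed at 125, 152 and 149 CPM. Cpt1c, the brain paralog of Cpt1a, was at 19.01, 5.11 and 5.48 CPM, and Acsl6 at 3.08, 0.518 and 0.0809 CPM, both lower in Mid_Ob than in Ctrl. In mesothelial-like clusters Cpt1c read 70.2, 65.0 and 53.2 CPM. The mesothelial markers in the adipocyte-like classes read 506, 224 and 120 CPM. Acsl6 also read 2.09, 0.282 and 0.0458 CPM in macrophage-like and 1.96, 0.428 and 0.362 CPM in mesothelial-like clusters. The part of RNA from other cells in the Cpt1c and Acsl6 levels was not tested. Of the 11 genes of that list, 3 were higher and 3 lower in Mid_Ob over Ctrl, against 15.3% and 20.2% of all genes. Of the 10 with enough counts, 2 and 2 were so in Ob over Mid_Ob (15.3% and 19% of all genes), and 1 and 2 in Ob over Ctrl (18.8% and 27.6%).

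Malonyl-CoA, the inhibitor of carnitine palmitoyltransferase 1, is made by Acaca and Acacb and removed by Mlycd. Acaca stood at 2628 CPM in the adipocyte-like cluster of Ctrl, 1606 CPM in Mid_Ob and 355 CPM in Ob, with an Ob over Ctrl ratio of 0.14 (0.13 to 0.14). Acacb, the form tied to mitochondria, stood at 324, 106 and 108 CPM, a ratio of 0.33 (0.32 to 0.34). Mlycd stayed at 22.3, 16.8 and 19.6 CPM. Both carboxylases were lower in Ob than in Ctrl in adipocyte-like, macrophage-like and mesothelial-like clusters alike, where 2 of 3 genes of the list were called lower in each, against 27.6%, 24.1% and 18.1% of all genes. From Ctrl to Ob, Acaca went from 386 to 111 CPM in macrophage-like and from 372 to 172 CPM in mesothelial-like clusters. The adipocyte markers there went from 2645 to 3551 CPM and from 2335 to 4250 CPM. The part of adipocyte RNA in these levels was not tested.

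Peroxisomes shorten chains too long for mitochondria. Acaa1b, a peroxisomal thiolase, stood at 27.1, 39.9 and 110 CPM in adipocyte-like clusters, 4.06-fold (3.65 to 4.52) higher in Ob than in Ctrl. Abcd2 stood at 474, 461 and 349 CPM and Acox3 at 33.0, 58.7 and 33.5 CPM. Of the 11 genes 1 was higher in Mid_Ob over Ctrl and none lower (15.3% and 20.2% of all genes), 4 were higher and 1 lower in Ob over Mid_Ob (15.3% and 19%), and 3 were higher and none lower in Ob over Ctrl (18.8% and 27.6%).

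Among the 13 regulators 2 were higher and 2 lower in Mid_Ob over Ctrl, against 15.3% and 20.2% of all genes. Ob over Mid_Ob and Ob over Ctrl each had 4 higher and 6 lower, against 15.3% and 19% and against 18.8% and 27.6%. Pparg, the master factor of adipocytes, was at 2095, 2540 and 1365 CPM, and Rxra, its partner, at 74.5, 46.7 and 21.3 CPM, the latter with an Ob over Ctrl ratio of 0.29 (0.26 to 0.31). Nrip1, a corepressor, was at 1330, 917 and 1467 CPM. Pdk4, the kinase that shuts off pyruvate dehydrogenase, was lowest in Mid_Ob, at 82.1, 28.7 and 124 CPM. The uncoupling proteins Ucp3 and Ucp2 were at 35.5, 65.9 and 57.1 CPM and at 12.2, 16.1 and 40.8 CPM. In Ob Ucp2 was at 56.7 CPM in cluster 5, which carried the macrophage markers, and at 17.1 and 19.95 CPM in clusters 4 and 7.

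Among ketone body genes, Oxct1, which uses ketone bodies, was at 117 CPM in Ctrl, 257 CPM in Mid_Ob and 209 CPM in Ob, 2.19-fold (2.07 to 2.32) higher in Mid_Ob than in Ctrl. Acat1 stood at 117, 134 and 121 CPM, and Bdh1 did not exceed 1.74 CPM. Of 5 genes 2 were higher and 1 lower in Mid_Ob over Ctrl, against 15.3% and 20.2% of all genes, and 1 was higher and 1 lower in Ob over Mid_Ob, against 15.3% and 19%. Of 4 with enough counts, 1 was higher and 1 lower in Ob over Ctrl, against 18.8% and 27.6%.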

How the data were processed

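Nuclei of epididymal adipose tissue from 3 pools of mice were sequenced on the 10x Genomics platform, 1 library per stage. The authors ran Cell Ranger, which includes STAR; the sources used here name neither a version nor a build. The signal columns are the mean counts the authors deposited for each gene and cluster, the UMIs of a gene over the summed size factor of the nuclei. The deposited log2 fold changes and adjusted p-values of the authors' own contrasts were not used.

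The smallest step of each column gave its whole counts, and 100% of values were whole within 0.001 counts. Counts were summed over clusters, divided by the summed UMIs and multiplied to CPM. Levels have exact Poisson, ratios conditional binomial and shares exact binomial (Clopper-Pearson) 95% intervals, which cover counting error only. Calls needed a ratio past 1.5-fold and at least 50 counts in the pair. Both steps were run on simulated counts with known ratios. A single count was planted there as the smallest value, which fixed the recovery of whole counts in advance. The changed genes differed by far more than 1.5-fold, so true ratios near the threshold were not tried. Clusters hold 334383 to 36391957 UMIs.

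The 9 genes, the 6 further lists and the markers were chosen with earlier results of these data known. Clusters were named after the data had been seen, where at least 3 markers of a class had over 10 counts and exceeded the median of the other clusters 2-fold, and the 10 leading genes (mean count of 0.5 or more) did not go against it. Named genes were all 9 members and, of each further list, the 2 with most counts in adipocyte-like clusters and the highest and lowest ratio of each adipocyte-like stage comparison. Ratios named beside a list's count are examples of these. Some genes that this rule names are not reported here. As likeness, the 5 genes nearest to the sum and the 3 nearest to Cpt1a and to Cpt1b were named, among genes with at least 500 counts, unnamed gene models left out. Acaa1b and Ehhadh as leading genes of a cluster were chosen with their values in view.

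Of the gene identifiers, 99.8% matched GENCODE M21 (GRCm38), which gave positions and exon lengths. Whether reads on introns or the opposite strand were counted is not stated, so overlapping genes may share reads. Promoters are RefSeq entries of GRCm38.p6. Alternatives were scaling by the median gene ratio, equal weight for each cluster, minimums of 10 and 500 counts, a fold of 2, and fits without testis and epididymis clusters, without unnamed ones, without mitochondrially encoded genes or without 1 cluster of a class at a time. Python 3.11.15, numpy 2.4.6, pandas 2.3.3, scipy 1.17.1 and matplotlib 3.10.9 were used.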

Additional observations from a re-analysis of the deposited data

How the results depend on the processing

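Counts of the 9 genes past the threshold were recomputed in 114 alternative fits, giving 228 counts, of which 191 stayed within 1.5 times the reported count and 37 did not. Of 988 single-gene ratios 844 were scored as the same and 144 as moved, and none of those called changed direction. The following are counts of genes, higher unless said. A fold of 2 left 0 in whole libraries for Mid_Ob over Ctrl and Ob over Mid_Ob, with 1 left for Ob against Ctrl. In adipocyte-like clusters it left 0 higher in each stage comparison and 0 lower in both comparisons with Ctrl. It left 0 in macrophage-like clusters for Ob over Mid_Ob and over Ctrl, and 0 in mesothelial-like clusters for both, with 1 lower for Ob over Ctrl. Adipocyte-like over other clusters then had 1 in Ctrl and 2 higher and 0 lower in Ob. With scaling by the median gene there were 6 in whole libraries for Ob over Ctrl, 2 higher and 1 lower in adipocyte-like clusters for Mid_Ob over Ctrl, and 2 in macrophage-like clusters for Ob over Mid_Ob. A minimum of 500 counts, which tests fewer genes, left 0 lower for Mid_Ob over Ctrl in adipocyte-like and mesothelial-like clusters, 1 lower in adipocyte-like clusters for Ob against Ctrl, and in mesothelial-like clusters 1 higher for Ob over Mid_Ob and 0 lower for Ob over Ctrl. Without testis and epididymis clusters whole libraries had 0 for Mid_Ob over Ctrl and 2 lower for Ob over Ctrl (Acadvl added), and the adipocyte-like cluster of Ctrl had 2 over the others with unnamed clusters left out as well. Equal weight for each cluster left 1 in macrophage-like clusters for Ob over Ctrl. Leaving out 1 cluster gave 1 lower in adipocyte-like clusters for Ob over Mid_Ob (Ob cluster 5, Cpt1a). In macrophage-like clusters it gave 2 for Mid_Ob over Ctrl without Ctrl cluster 9 (Cpt2 and Slc25a20), 1 without cluster 11 (Cpt1a), and 2 for Ob over Mid_Ob without Ob cluster 3 (Acadl added). In mesothelial-like clusters, Mid_Ob over Ctrl had 0 lower without Ctrl cluster 3 or 5, and Ob over Ctrl had 1 lower without cluster 3 (Cpt2, with Cpt1b and Acadvl lost) and 0 without cluster 5. Where no gene is named, the cause was not tested. No paired analysis was possible because each stage has 1 library and no replicate numbers.

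With 1 pooled library per stage, differences between stages have no replicate check, and depth limits mainly Cpt1b, Acadvl and the small mesothelial-like and lymphocyte-like clusters. The study's methods name DoubletFinder for removing doublets, but not whether these tables were made before or after that step, and free RNA is not mentioned.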
